A study of Homo sapiens with 12 samples.

Results

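The 9 genes described here are DLX1, DLX2, DLX5 and DLX6, 4 homeobox genes of the Distal-less family, the homeobox genes GSX2 and LHX6, and 3 genes of GABA synthesis and storage, GAD1, GAD2 and SLC32A1. They were chosen by name because of their levels in earlier results of these data, from the 58302 Ensembl genes counted by RNA-seq in 12 samples, 2 in each of 6 groups. All samples came from the human embryonic stem cell line H1, either unmodified (WT) or with the catalytic JmjC domain of both H3K27 demethylases, UTX (KDM6A) and JMJD3 (KDM6B), deleted by CRISPR (dKO). The dKO cells were clones picked under puromycin, and the number of clones behind the dKO samples is not given in the sources used here. Neural progenitor cells (NPCs) were made by dual SMAD inhibition and expanded as spheres in bFGF and EGF. WT-NPC and dKO-NPC are passage 2 cells, a passage named in the study's text and not in the labels. WT-NPC-P4 and dKO-NPC-P4 are passage 4 cells. WT-D28 and dKO-D28 are cells differentiated for 28 days from passage 2 NPCs, without growth factors and with GDNF, BDNF and cAMP. The levels, differences and counts of the 9 genes are a description without a test, because the same values led to their choice.

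In the ventral forebrain, progenitors of the ganglionic eminences give rise to neurons that use GABA, the main inhibitory transmitter of the brain. GSX2 patterns these progenitors and acts upstream of the DLX genes, DLX1 and DLX2 come on before DLX5 and DLX6, and LHX6 acts after NKX2-1 in interneurons of the medial eminence. GAD1 and GAD2 encode the glutamate decarboxylases that make GABA, and SLC32A1 encodes the transporter (VGAT) that loads it into synaptic vesicles. DLX1 with DLX2 and DLX5 with DLX6 are convergently transcribed pairs, and UTX and JMJD3 remove the repressive H3K27me3 mark that covers many such developmental genes in stem cells.

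In hg38, DLX1 (ENSG00000144355) lies on chromosome 2 from 172084740 to 172089677 on the plus strand, and DLX2 (ENSG00000115844) from 172099438 to 172102900 on the minus strand, 9.8 kb away. DLX6 (ENSG00000006377) lies on chromosome 7 from 97005553 to 97011040 on the plus strand, and DLX5 (ENSG00000105880) from 97020396 to 97024950 on the minus strand, 9.4 kb away. GAD1 shares chromosome 2 with the first pair, from 170813213 to 170861151. The other 4 genes lie on chromosome 4 (GSX2, 54099523 to 54102498), chromosome 9 (LHX6, 122202577 to 122229626), chromosome 10 (GAD2, 26216665 to 26304558) and chromosome 20 (SLC32A1, 38724486 to 38729372).

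The promoters of these genes were CpG-rich. RefSeq promoter windows were found for 8 of the 9 genes, all but DLX5, and in the 250 bases before the start site their ratio of observed to expected CG dinucleotides was 0.781 to 1.03, against a median of 0.556 over 27305 promoters. Their GC content was 61.6% to 73.6%, against a median of 58%. Each of the 8 was above the median of all promoters in both measures. In CG ratio they ranked from GSX2, above 67.6% of promoters, to GAD1, above 93.2%. The windows of DLX2, DLX6, GAD2 and SLC32A1 are shown for this shared base composition, because no annotated transcript of the gene itself starts further upstream. They are written 5′ to 3′ on the gene's strand in RefSeq coordinates of GRCh38.p14, with capitals marking each CG dinucleotide.
DLX2, chr2:172102901-172103150, minus strand: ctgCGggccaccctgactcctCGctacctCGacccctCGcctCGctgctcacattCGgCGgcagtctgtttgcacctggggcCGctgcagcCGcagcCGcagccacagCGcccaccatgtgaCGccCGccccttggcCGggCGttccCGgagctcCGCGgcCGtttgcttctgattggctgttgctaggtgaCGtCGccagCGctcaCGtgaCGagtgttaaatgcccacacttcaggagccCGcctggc
DLX6, chr7:97005303-97005552, plus strand: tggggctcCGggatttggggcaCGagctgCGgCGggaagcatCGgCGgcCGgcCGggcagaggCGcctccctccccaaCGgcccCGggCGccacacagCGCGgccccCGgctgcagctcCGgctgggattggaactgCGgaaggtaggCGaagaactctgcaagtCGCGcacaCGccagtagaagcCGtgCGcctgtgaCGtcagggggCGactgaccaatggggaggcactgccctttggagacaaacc
GAD2, chr10:26216122-26216371, plus strand: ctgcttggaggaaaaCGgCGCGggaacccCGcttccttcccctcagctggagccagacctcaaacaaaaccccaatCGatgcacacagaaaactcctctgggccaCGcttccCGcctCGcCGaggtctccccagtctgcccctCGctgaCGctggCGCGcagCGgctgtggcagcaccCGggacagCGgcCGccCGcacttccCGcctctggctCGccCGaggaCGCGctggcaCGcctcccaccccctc
SLC32A1, chr20:38724236-38724485, plus strand: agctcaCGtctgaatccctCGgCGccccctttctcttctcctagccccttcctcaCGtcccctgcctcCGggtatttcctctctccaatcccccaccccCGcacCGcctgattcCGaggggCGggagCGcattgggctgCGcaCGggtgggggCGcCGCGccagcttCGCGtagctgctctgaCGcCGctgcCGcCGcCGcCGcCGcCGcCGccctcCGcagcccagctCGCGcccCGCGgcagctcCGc
The letters TAATTA, the core that DLX and other homeodomain proteins bind, were in none of the 8 windows on either strand and in 4.49% of all promoters. CAGCTG, an E-box letter string, occurred 1 time in the GAD2 window and in 13.8% of promoters. TATAAA occurred in the GSX2 window (1 time) and the GAD1 window (2 times), and in 11.1% of promoters. The strings do not overlap one another, and a match or its lack in these windows says nothing of binding.

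Total counts per sample ranged from 756942 in WT-NPC sample 1 to 10601172 in WT-D28 sample 2, so that 3 counts corresponded to 3.92 and 0.302 CPM (counts scaled to a common library size by TMM). These floors cover counting error only. SOX2, a progenitor gene, was at 218 to 515 CPM in all 12 samples, whereas PAX6 was at 11.9 and 11.7 CPM in WT-D28 and at 177 to 356 CPM elsewhere. Pluripotency genes summed to at most 131 CPM, and POU5F1 and NANOG among them had 0 counts throughout. Whether such zeros mean absence was not tested, and MAPT, a neuronal gene, also had at most 2 counts in any sample. Passage 2 samples had the highest pluripotency sums, WT-NPC at 131 and 115 CPM, dKO-NPC at 106 and 90.5 CPM. At day 28 the sum was 47 and 86.5 CPM in dKO-D28 against 0.96 and 0.604 CPM in WT-D28. At passage 4 it was 34.4 and 37.8 CPM in dKO against 1.67 and 1.28 CPM in WT. LIN28A was at 32.2 and 80.3 CPM in dKO-D28, while the WT-NPC samples had 87.5 and 84.2 CPM of it. Apart from LIN28A and DPPA4, no pluripotency gene exceeded 0.727 CPM in any sample. KDM6A and KDM6B were still counted in every dKO sample (27.7 to 59.4 and 146 to 188 CPM), and counts over whole genes do not show whether a catalytic exon is missing. Beyond counting noise the dKO-D28 samples differed most from each other, the chi-square of their counts being 14 times its degrees of freedom against 1.55 to 3.3 times in the other pairs. They had 795 genes over 2-fold apart, against 1045 in WT-NPC, which holds the shallowest sample, and 31 in WT-D28. Fold changes named for the members and listed genes that moved by over 1.5-fold, or lost their call, without 1 sample are given also without it.

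**Figure D1:**
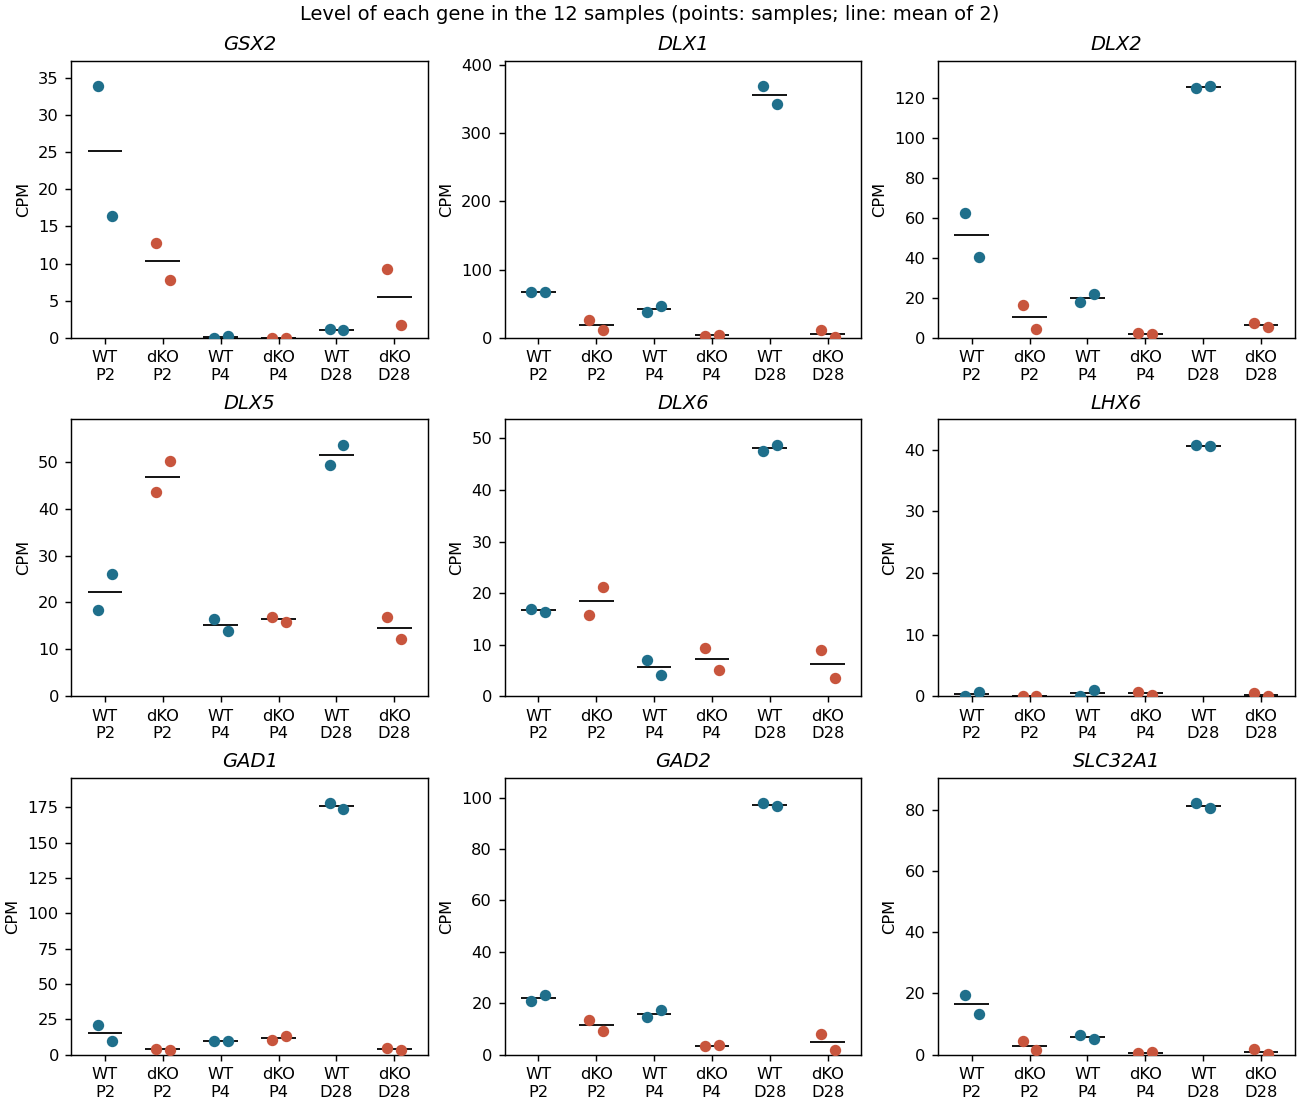
CPM (vertical axes, linear and starting at 0) of each of the 9 genes in the 6 groups (WT blue, dKO red; points are samples, lines are means of 2). In WT-D28, 8 of the 9 genes had their highest mean, and GSX2 had its highest mean in WT-NPC.

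GSX2, the progenitor factor, had its highest means in the passage 2 NPCs. It had 33.9 and 16.4 CPM in WT-NPC, 12.8 and 7.78 CPM in dKO-NPC, 1.2 and 1.01 CPM in WT-D28, and 9.21 and 1.74 CPM in dKO-D28. At passage 4 it had 0 and 0.257 CPM in WT and 0 in both dKO samples, which with 3 counts as the limit allows up to 0.703 and 0.736 CPM in the latter. The WT-NPC samples were thus the highest, without overlap with dKO-NPC, whereas dKO-NPC overlapped dKO-D28. GSX2 in dKO-D28 lay above WT-D28, with the samples of dKO-D28 far apart. It stayed below a mean of 20 counts over the 12 samples and was not fitted.

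DLX1, expressed in subpallial progenitors and migrating interneurons, had the highest level per kilobase of the 9 genes in each of the 3 WT groups. It had 66.6 and 67.1 CPM in WT-NPC, 37.7 and 46.5 CPM in WT-NPC-P4, and 369 and 343 CPM in WT-D28. The corresponding dKO values were 25.5 and 12 CPM at passage 2, 3.05 and 4.17 CPM at passage 4, and 10.7 and 0.965 CPM at day 28. Every dKO sample was below every WT sample, and the day 28 dKO samples were the most unlike each other. The log2 difference of dKO from WT was -1.84 (SE 0.67) at passage 2, -3.55 (SE 0.67) at passage 4 and -6.04 (SE 0.55) at day 28. The day 28 value was -8.48 without dKO-D28 sample 1 and -5.06 without sample 2, and the passage 2 value was -2.47 without dKO-NPC sample 1.

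DLX2, its neighbour and partner, had 62.7 and 40.3 CPM in WT-NPC, 18 and 22.1 CPM in WT-NPC-P4, and 125 and 126 CPM in WT-D28. In dKO cells it had 16.5 and 4.24 CPM at passage 2, 2.34 and 1.72 CPM at passage 4, and 7.27 and 5.6 CPM at day 28. Again no dKO sample reached a WT sample of any stage. The log2 differences were -2.27 (SE 0.39), -3.29 (SE 0.41) and -4.29 (SE 0.28) in the same order, the first being -3.54 without dKO-NPC sample 1 and -1.58 without sample 2.

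DLX5 and DLX6 followed another order at the progenitor stages. DLX5 had 18.3 and 26.1 CPM in WT-NPC but 43.5 and 50.2 CPM in dKO-NPC, a range that overlapped that of WT-D28 (49.4 and 53.7 CPM). At passage 4 the genotypes overlapped, WT-NPC-P4 having 16.4 and 13.9 CPM and dKO-NPC-P4 16.9 and 15.9 CPM. At day 28 dKO cells had 17 and 12.2 CPM. The log2 difference was 1.03 (SE 0.25) at passage 2, 0.13 (SE 0.21) at passage 4 and -1.84 (SE 0.18) at day 28, so DLX5 alone of the 8 fitted genes was past the thresholds and higher in dKO-NPC. This was no longer the case without WT-NPC sample 1, without dKO-NPC sample 2 or once GC content and length were corrected for.

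DLX6 had 17 and 16.4 CPM in WT-NPC, 7.02 and 4.11 CPM in WT-NPC-P4, and 47.6 and 48.8 CPM in WT-D28. The dKO samples had 15.8 and 21.2 CPM at passage 2, 9.37 and 5.15 CPM at passage 4, and 8.97 and 3.47 CPM at day 28. The genotypes overlapped at both passages and stood apart at day 28, with log2 differences of 0.16 (SE 0.45), 0.43 (SE 0.42) and -3.00 (SE 0.31), the last being -3.79 without dKO-D28 sample 1.

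The balance of the pairs therefore differed between genotypes within single samples, where library scaling plays no part. The ratio of the per-kilobase level of DLX5 to that of DLX1 was 0.274 to 0.89 in the 6 WT samples and 3.25 to 25.9 in the 6 dKO samples. The ratio of DLX5 to DLX2, also per kilobase, was 0.497 to 1.55 in WT and 3.71 to 20.2 in dKO. Neither pair of ranges overlapped. The upper ends in dKO rest on few counts, 5 of DLX1 in dKO-D28 sample 2 (25.9) and 6 of DLX2 in dKO-NPC sample 2 (20.2). In level per kilobase, WT-D28 ordered the family as DLX1 (99.7 CPM per kb), DLX2 (42.2), DLX5 (29.6) and DLX6 (14). In dKO-D28 DLX5 was highest (8.35 CPM per kb), with the other 3 between 1.63 and 2.17.

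DLX6-AS1, a long noncoding RNA transcribed against DLX6, went with DLX1 and DLX2 rather than with the DLX5 and DLX6 pair. It had 268 and 180 CPM in WT-NPC, 235 and 262 CPM in WT-NPC-P4 and 992 and 1020 CPM in WT-D28. In dKO it had 86.3 and 25.5, 36.1 and 40, and 67.4 and 14.9 CPM at the same stages, and no dKO sample overlapped WT. Its log2 difference was -1.99 (SE 0.78, adjusted p = 0.296) at passage 2, -2.71 (SE 0.68, adjusted p = 0.0161) at passage 4 and -4.65 (SE 0.70, adjusted p = 0.00143) at day 28 in edgeR's quasi-likelihood test. The ratio of its CPM to that of DLX5 was 6.9 to 20.1 in WT samples and 0.508 to 3.96 in dKO samples. DLX6 shares 759 of its 3445 exonic bases (22%) with DLX6-AS1. The sources used here do not say whether the libraries kept strand, so reads there may not have been told apart. DLX5 shares none. The remaining family members DLX3 and DLX4 stayed at or below 1.94 CPM, except for DLX3 in dKO-D28 sample 2 (10.4 CPM).

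LHX6, the interneuron factor, was counted almost only in differentiated WT cells, at 40.8 and 40.5 CPM in WT-D28. The other 10 samples had 0 to 4 counts each, or at most 1.03 CPM. With 743 counts in WT-D28 and 2 in dKO-D28, its rate was 190-fold higher in WT-D28 (95% exact interval of the counts 52.3 to 1.57e+03). Such intervals pool the 2 samples of a group and cover counting error only, not the spread between samples, so they are too narrow where samples differ more. Against WT-NPC, with 1 count, the ratio was 86 (15.4 to 3.4e+03), and against dKO-NPC, with 0 counts, it was at least 37.3-fold higher, taking 3 counts over the group as the floor (the 95% exact interval, which allows more counts, starts at 30.3). The fitted difference at day 28, -7.36, rests on those 2 counts and was -10.33 and -6.30 without either dKO-D28 sample.

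GAD1, the decarboxylase for most GABA synthesis, had 20.9 and 9.69 CPM in WT-NPC, 9.69 and 9.76 CPM in WT-NPC-P4, and 178 and 174 CPM in WT-D28. In dKO it had 3.75 and 3.54 CPM at passage 2, 10.5 and 13.2 CPM at passage 4, and 4.36 and 3.28 CPM at day 28. It was the only member that was higher in dKO than in WT at passage 4 in both samples, by a log2 difference of 0.29 (SE 0.24), below the fold threshold. At passage 2 and day 28 the differences were -1.93 (SE 0.45) and -5.53 (SE 0.21). Exons of another gene, ENSG00000235934, cover 7.41% of the exonic bases of GAD1.

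GAD2, the synaptic form of the decarboxylase, had 20.9 and 23.1 CPM in WT-NPC, 14.7 and 17.2 CPM in WT-NPC-P4 and 97.9 and 96.7 CPM in WT-D28. The dKO samples had 13.5 and 9.19, 3.28 and 3.68, and 8 and 1.93 CPM. They lay below WT at each stage, by a log2 difference of -0.97 (SE 0.48), -2.20 (SE 0.41) and -4.36 (SE 0.32), and by -5.64 and -3.60 at day 28 without dKO-D28 sample 1 and without sample 2.

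SLC32A1, the vesicular GABA transporter, had 19.6 and 13.4 CPM in WT-NPC, 6.35 and 5.14 CPM in WT-NPC-P4 and 82.2 and 80.5 CPM in WT-D28. In dKO cells it had 4.5 and 1.41 CPM at passage 2, 0.468 and 0.736 CPM at passage 4, and 1.7 and 0.193 CPM at day 28, the last 4 values resting on 1 to 7 counts. The log2 differences were -2.43 (SE 0.56), -3.18 (SE 0.59) and -6.51 (SE 0.35). Without dKO-NPC sample 1 and sample 2 the first was -3.46 and -1.80, and without dKO-D28 sample 1 and sample 2 the last was -8.50 and -5.56.

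**Figure D2:**
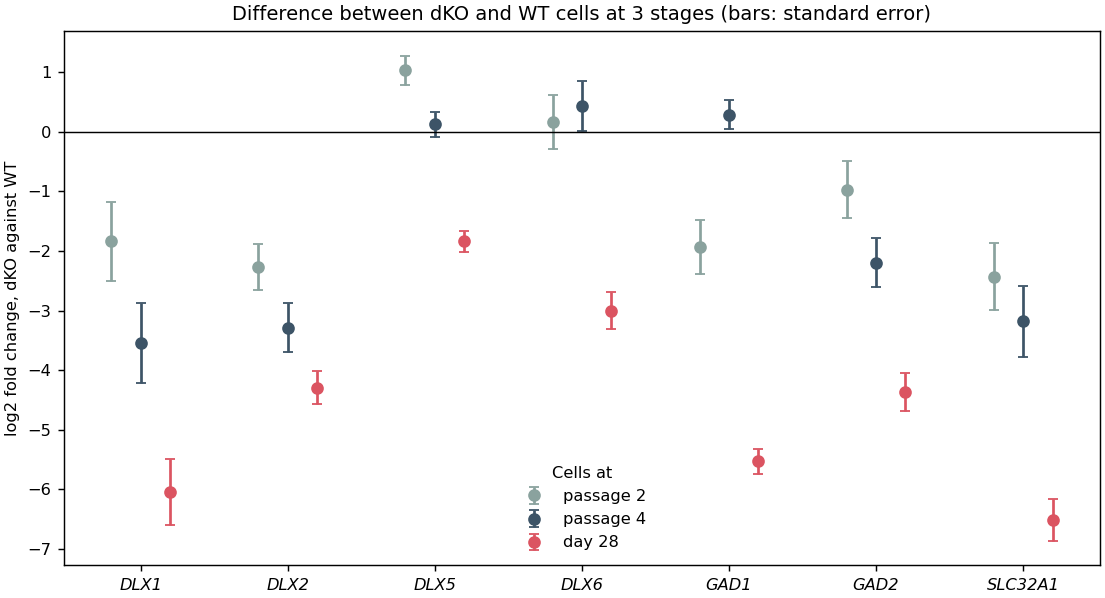
Log2 fold change of dKO against WT (vertical axis) for 7 of the 8 fitted genes at passage 2, passage 4 and day 28, with bars of 1 standard error from the edgeR fit over 12 samples. DLX1, DLX2, GAD2 and SLC32A1 were below 0 at each stage, whereas DLX5 moved from 1.03 to -1.84. LHX6 is left out because 10 samples had 0 to 4 counts.

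A gene was called past the thresholds when its unadjusted p was below 0.05 and its fold change above 2, and Benjamini-Hochberg adjusted values are given for named genes other than the members. Of the 8 genes fitted, 1 was past them and higher and 4 were lower in dKO-NPC, where 2.59% and 1.83% of all 13454 genes tested were called higher and lower. At passage 4, 0 were higher and 4 lower (DLX1, DLX2, GAD2 and SLC32A1), beside 11.1% and 11.2% of all genes. At day 28, 0 were higher and 8 lower, beside 12.4% and 11.7%. When any gene with at least 1 count was tested, which added GSX2, 1 of 9 was higher and 8 were lower at day 28. The median log2 difference of the 8 fitted genes was -1.89, -1.23 and -4.94 at the 3 stages, where the median of all genes was within 0.02 of 0. Nothing is read from these shares, because the genes were chosen on these comparisons. The dKO ranges lay below WT for 6 of the 9 genes at passage 2, 4 at passage 4 and 8 at day 28, where GSX2 was the exception. The share of all genes with such ranges was not computed, so nothing is read from these counts either. DLX1 at passage 2 lost its call without either WT-NPC sample, without dKO-NPC sample 2 and with adjusted p-values.

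Over differentiation the genotypes moved apart. From WT-NPC to WT-D28, 8 of the 8 fitted genes were past the thresholds and higher, beside 12.9% of all genes. Log2 differences ran from 1.16 for DLX5 to 3.65 for GAD1, with a larger value for LHX6. The filter on mean counts shapes this count, because LHX6 passed it through its WT-D28 counts and GSX2 did not pass. When any gene with at least 1 count was tested, 8 of 9 were higher and 1, GSX2, was lower. The call of DLX5 was lost without WT-NPC sample 1. From dKO-NPC to dKO-D28, 0 were higher (beside 4.01% of all genes) and 4 lower (beside 3.14%, or 7.14% in either direction), DLX5 (-1.70, SE 0.21), DLX6 (-1.62, SE 0.41), GAD2 (-1.26, SE 0.50) and SLC32A1 (-1.72, SE 0.78). GAD2 and SLC32A1 lost their calls without dKO-D28 sample 2, without dKO-NPC sample 1, with adjusted p-values and when only the compared samples were fitted, and SLC32A1 also after correction for GC content and length. Their values without 1 sample ranged from -2.53 to -0.50 and from -3.72 to -0.69, and DLX6 was at -2.41 without dKO-D28 sample 1. DLX1 gained a call without dKO-D28 sample 1, and DLX2 without dKO-NPC sample 2. GAD1 stayed level in dKO, at 0.05 (SE 0.47). The genotype difference in this change was past the thresholds and negative for 7 of the 8, beside 11.1% of all genes. It ran from -2.02 (SE 0.53) for DLX2 to -4.20 (SE 0.98) for DLX1. When any gene with at least 1 count was tested, 7 of 9 were negative and 1 was positive. Without dKO-D28 sample 1 and sample 2 the value of DLX1 was -6.63 and -3.21, and those of the others apart from LHX6 lay between -6.08 (SLC32A1) and -0.76 (DLX2) without 1 sample. DLX2 and SLC32A1 were no longer past them without dKO-NPC sample 1. LHX6 gave no usable value because dKO-NPC had 0 counts.

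Several members were lower at passage 4 than at passage 2. In WT, DLX2 (-1.29, SE 0.30), DLX6 (-1.61, SE 0.48) and SLC32A1 (-1.47, SE 0.41) were past the thresholds and lower at passage 4, beside 9.49% of all genes, and 0 were higher, beside 10.3% (19.8% in either direction). DLX2 lost this call without WT-NPC sample 1, and GAD1 gained one without sample 2, at -1.10. In dKO, 6 were lower, beside 5.22%, and GAD1 was higher (1.70, SE 0.39), beside 4.61%. The number lower in dKO was 2 without dKO-NPC sample 1, and 4 with adjusted p-values or without either dKO-NPC-P4 sample. All comparisons within a genotype share the passage 2 samples, and day 28 and passage 2 comparisons share them with one another, so their values are not independent.

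**Figure D3:**
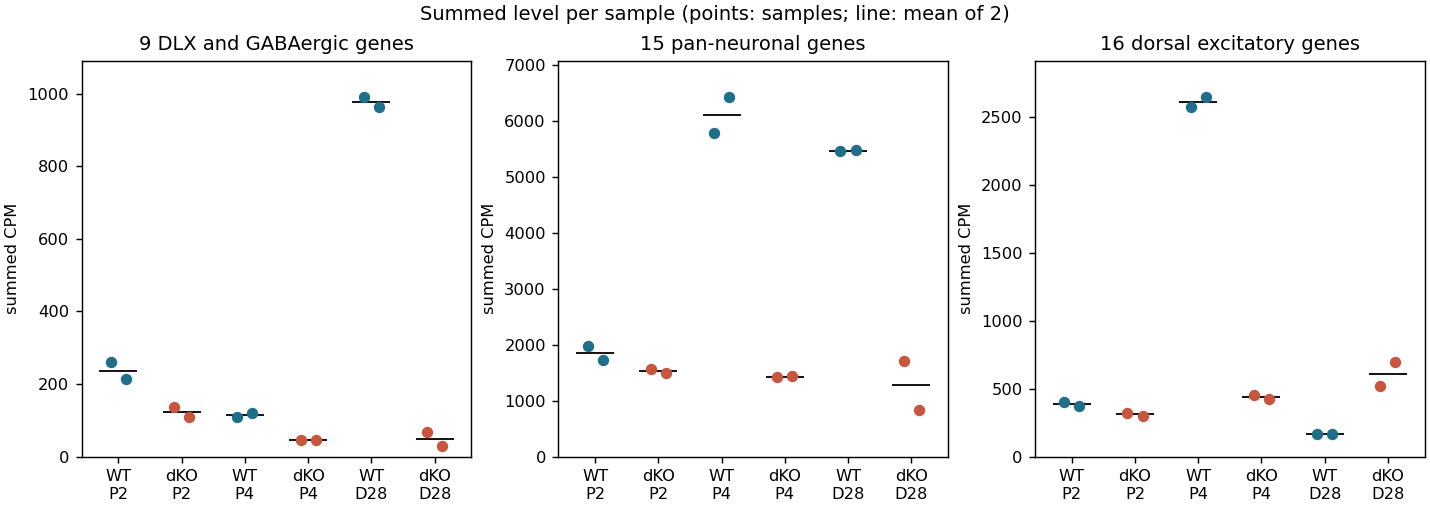
Summed CPM per sample (vertical axes start at 0) of the 9 genes, of 15 pan-neuronal genes and of 16 dorsal excitatory genes in the 6 groups (WT blue, dKO red; points are samples, lines are means of 2). The 9 genes peaked in WT-D28 (991 and 964 CPM) and the dorsal excitatory genes in WT-NPC-P4 (2580 and 2650 CPM), while pan-neuronal sums were high in both.

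The levels of neuronal genes moved with the GABAergic members in part. The 9 genes summed to 991 and 964 CPM in WT-D28, 260 and 213 CPM in WT-NPC, 110 and 120 CPM in WT-NPC-P4, and 29.4 to 136 CPM in the 6 dKO samples. Pan-neuronal genes, among them MAP2, DCX and STMN2, summed to 5450 and 5470 CPM in WT-D28 and to 5780 and 6420 CPM in WT-NPC-P4, but to 1710 and 832 CPM in dKO-D28. Of 13 pan-neuronal genes tested, 0 rose and 11 fell in dKO-D28 against WT-D28, beside 12.4% and 11.7% of all genes (median log2 difference -2.60, against 0.003 for all genes), for example GAP43 (-3.65, SE 0.44, adjusted p = 0.000311) and SYN1 (-3.42, SE 0.19, adjusted p = 8.34e-10). GAP43 was at -4.69 without dKO-D28 sample 1 and -3.01 without sample 2. In bulk RNA, fewer cells of a type and less RNA per cell cannot be told apart, and the part of neuronal content in the members' levels was not tested. Relative to the pan-neuronal sum, GAD1 was 3.27% and 3.18% in WT-D28, 0.255% and 0.394% in dKO-D28, and 0.168% and 0.152% in WT-NPC-P4. DLX1 was 6.77% and 6.27%, 0.626% and 0.116%, and 0.652% and 0.724% in the same groups. DLX5 differed from them, with 0.906% and 0.982% in WT-D28 and 0.994% and 1.47% in dKO-D28. In WT-NPC, GAD1 was 1.06% and 0.56%, DLX1 3.38% and 3.88%, and DLX5 0.929% and 1.51%. DLX2 was 3.18% and 2.33% in WT-NPC and 2.29% and 2.3% in WT-D28. DLX6 was 0.863% and 0.948%, and 0.873% and 0.892%. On this scale the WT-D28 samples did not stand above WT-NPC for DLX2, DLX5 and DLX6. They did for DLX1, LHX6, GAD1, GAD2 and SLC32A1.

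Dorsal telencephalic excitatory genes took the opposite course in WT cells. Their sum was 403 and 370 CPM in WT-NPC, 2580 and 2650 CPM in WT-NPC-P4 and 168 and 165 CPM in WT-D28, against 521 and 695 CPM in dKO-D28. The largest parts of the dKO-D28 sum were LHX2 (172 and 254 CPM), EMX2 (141 and 217 CPM) and FEZF2 (72 and 105 CPM). In the same samples SLC17A7 was at 7.51 and 1.35 CPM, and NEUROD2 had 0 counts. Between dKO-D28 and WT-D28, 12 of the 15 tested rose and 1 fell (median 4.08), where 12.4% and 11.7% of all genes were called higher and lower. The highest was NEUROG1 (6.56, adjusted p = 1.13e-08), with TBR1, a factor of early cortical neurons, at 6.25 (SE 0.38, adjusted p = 2.28e-09), or 7.22 without WT-D28 sample 2. Both values rest on few counts in WT-D28, 1 and 1 for NEUROG1 and 1 and 4 for TBR1. In dKO-D28 NEUROG1 had 12.6 and 13.9 CPM, and TBR1 had 29.1 and 17.9 CPM. EMX2, a dorsal progenitor factor, had 4.56 and 4.43 CPM in WT-D28 and 141 and 217 CPM in dKO-D28. NEUROD6, a marker of cortical excitatory neurons, had 365 and 379 CPM in WT-NPC-P4 and was listed at 0 counts in the other 10 samples. Between dKO and WT at passage 4, 0 rose and 13 fell, beside 11.1% and 11.2% of all genes. Glial genes summed to 448 and 440 CPM in WT-D28, 75.6 and 60.4 CPM in dKO-D28, and 2040 and 2250 CPM in WT-NPC-P4. In WT-NPC-P4 this sum was mainly SLC1A3, at 1780 and 1950 CPM, against 265 and 267 CPM in WT-D28. GFAP was at 14.9 and 18.2 CPM in WT-D28, 5.09 and 6.95 CPM in dKO-D28, and 21.7 and 23.6 CPM in WT-NPC-P4. Mesenchymal and neural crest genes summed to 465 and 421 CPM in dKO-D28 against 162 and 171 CPM in WT-D28, and to 1490 and 1910 CPM in dKO-NPC against 265 and 686 CPM in WT-NPC. The largest parts of the dKO-NPC sum were TAGLN (636 and 862 CPM) and COL1A1 (572 and 676 CPM). TWIST1, FOXD3, PAX3 and TFAP2A had at most 3 CPM there, but PAX3 and TFAP2A reached 31.3 and 32.2 CPM in dKO-D28 sample 2. Of 8 genes of this list tested at day 28, 4 rose and 1 fell. COL3A1 was at 18.7 and 7.33 CPM in dKO-D28, below the 52.2 and 55.6 CPM of WT-D28. Whether these sums reflect cell types, and what part such cells have in the members' values, was not tested.

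The wider GABAergic programme was followed in 4 lists with 97 genes other than the members, of which 63 were tested. In dKO-D28 against WT-D28, 18 rose and 24 fell, 42 of 63 or 66.7%, where 24.2% of all genes were called. The counts were 18 and 24 without dKO-D28 sample 1, and 16 and 23 without sample 2. At passage 4, 10 rose and 23 fell (52.4%, against 22.3% of all genes), and at passage 2, 5 rose and 5 fell (15.9%, against 4.42%), of which 4 and 0 had an adjusted p below 0.05. In 3 of the 4 lists at day 28, genes went both ways. The counts are descriptions of the lists, which were written with earlier results known.

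Among ventral forebrain transcription factors, 12 of the 31 tested rose and 9 fell at day 28 (median -0.22). NKX2-1, the determinant of the medial eminence, had 359 and 354 CPM in WT-D28 and 1.94 and 0.193 CPM in dKO-D28, a log2 difference of -8.47 (SE 0.28, adjusted p = 5.04e-12), which was -10.64 without dKO-D28 sample 1 and -7.50 without sample 2. In NPCs at passage 2 the WT samples had 67.9 and 71.6 CPM, and dKO cells had 88.6 and 117 CPM. At passage 4 its level was 23.4 and 22.1 CPM in WT but 0.468 and 0.736 CPM in dKO cells. LHX8, which NKX2-1 activates and which marks cholinergic neurons, had 112 and 119 CPM in WT-D28 and 0.485 and 0.386 CPM in dKO-D28 (-7.97, SE 0.33, adjusted p = 3.2e-11). ISL1, a LIM factor of striatal and cholinergic neurons, fell from 56.4 and 52.2 to 2.18 and 0.965 CPM (-5.14, SE 0.28, adjusted p = 4.68e-10), the difference being -5.77 without dKO-D28 sample 1. ST18 followed at -3.13 (SE 0.25, adjusted p = 6.28e-08).

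Other ventral factors rose in the same comparison. SP8, a zinc finger factor of the lateral and caudal eminences and of the dorsal progenitors, had 205 and 269 CPM in dKO-D28 and 0.6 and 0.101 CPM in WT-D28 (9.36, SE 0.27, adjusted p = 6.67e-13). Without WT-D28 sample 1 and sample 2 its difference was 10.77 and 8.54. FOXP2, of striatal and deep-layer cortical neurons, rose by 4 (SE 0.26, adjusted p = 3.16e-09) and MEIS1 by 2.40 (SE 0.18, adjusted p = 1.29e-08) on the log2 scale. SP8 was at 95.3 to 132 CPM in the passage 2 NPCs of both genotypes and at 108 to 185 CPM at passage 4, so WT-D28 stood apart from the other 5 groups.

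At passage 4, 7 of the 31 ventral factors rose and 11 fell in dKO (median -0.67). NKX2-1 had a log2 difference of -5.17 (SE 0.43, adjusted p = 9.42e-08) and BCL11B, of striatal and subcerebral neurons, of -4.78 (SE 0.23, adjusted p = 1.71e-10). ZNF503 rose by 2.88 (adjusted p = 0.00246). At passage 2, 1 factor rose and 3 were lower, and none of these 3 had an adjusted p below 0.05. They included NR2F1, at -1.46 with an adjusted p of 0.105.

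Of 10 tested genes for GABA transport, precursor supply and breakdown, 0 rose and 4 fell at day 28 (median -0.66). ABAT, the GABA transaminase, was in WT-D28 and dKO-D28 at 600.0 and 593 CPM against 237 and 146 CPM (-1.64, SE 0.17, adjusted p = 2.01e-06). GLS2, a glutaminase, and SLC38A3, a glutamine transporter, were at -1.22 and -1.16 (adjusted p = 0.0018 and 0.00477), and GLS2 was at -1.0 and no longer called without dKO-D28 sample 2. At passage 4, 0 rose and 3 fell.

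Among interneuron subtype and migration genes, 5 of 17 tested rose and 9 fell at day 28 (median -1.05). SST, the peptide of a large interneuron class, had 32.5 and 33.6 CPM in WT-D28 and 0.97 and 0 CPM in dKO-D28 (-6.16, SE 0.57, adjusted p = 6.07e-07), a difference of -10.04 without dKO-D28 sample 1 and -5.05 without sample 2. CNR1, the cannabinoid receptor, was at -5.57 (SE 0.17, adjusted p = 1.23e-12), TAC3 at -5.24 (SE 0.39, adjusted p = 2.83e-08) and NXPH1 at -4.04 (SE 0.44, adjusted p = 1.16e-06). NXPH1 was at -5.64 without dKO-D28 sample 1 and -3.17 without sample 2, and TAC3 at -5.98 without sample 2. TAC3 had 0 counts in WT-NPC and was at least 12.2-fold higher in WT-D28, taking 3 counts over the group as the floor (95% exact interval from 9.86, counting error only). RELN, secreted by Cajal-Retzius cells and by some interneurons, went the other way, at 10.2 and 8.55 CPM in WT-D28 and 318 and 267 CPM in dKO-D28 (4.96, SE 0.15, adjusted p = 6.67e-13), and NDNF rose by 3.11 (SE 0.44, adjusted p = 1.76e-05). PVALB and VIP, which mark mature classes, had at most 0.745 CPM in any sample. At passage 4, 1 of the 17 rose and 8 fell, CALB2 at -5.86 (SE 0.51, adjusted p = 1.23e-07), or -6.75 without dKO-NPC-P4 sample 1. At passage 2, 4 were higher, among them NRP2 (1.71, adjusted p = 0.0101) and CALB1 (1.76, adjusted p = 0.0175), and 2 lower. Without WT-NPC sample 2 these values were 2.45 and 2.87.

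Of 5 tested genes of striatal projection neurons, 1 rose and 2 fell at day 28, ADCY5 (-2.86, adjusted p = 4.76e-07) and RGS9 (-1.90, adjusted p = 5.26e-05), with PDE10A at 1.72 (adjusted p = 2e-07). Without dKO-D28 sample 1, ADCY5 was at -3.50 and RGS9 at -2.59. DRD1, which defines 1 of the striatal output classes, was at most 2.51 CPM in any sample.

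**Figure D4:**
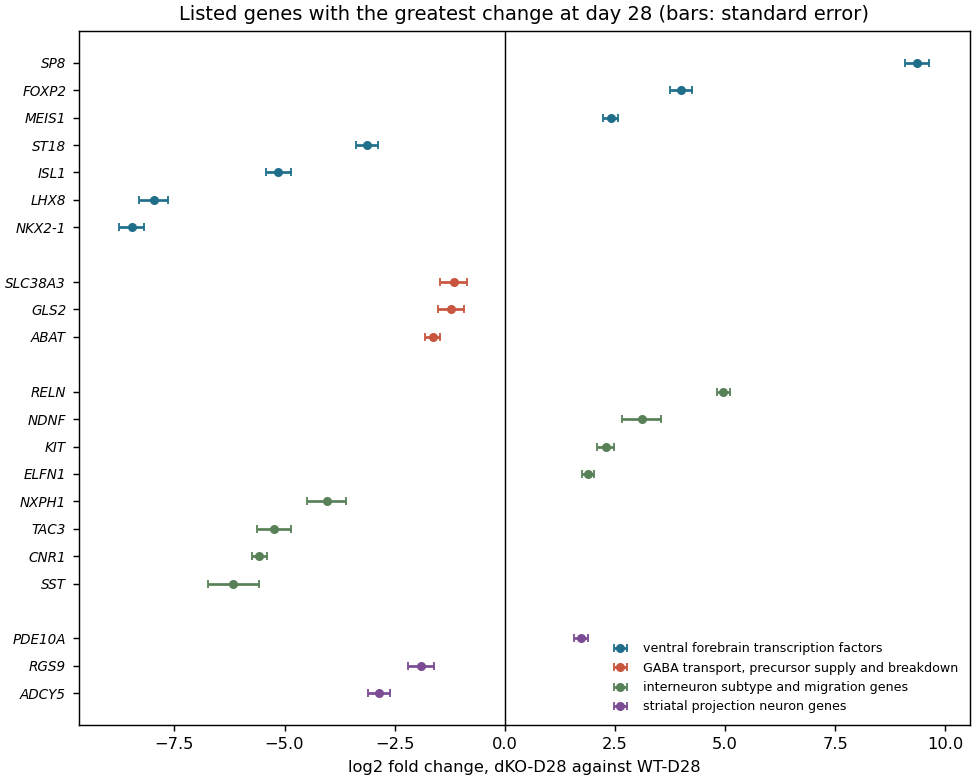
Log2 fold change of dKO-D28 against WT-D28 (horizontal axis) for 21 of the genes of the 4 GABAergic lists that were called at day 28, taken from those with the greatest change in each list and direction, coloured by list, with bars of 1 standard error from the edgeR fit. On the left, from NKX2-1 at -8.47, are 13 genes that fell, and on the right, up to SP8 at 9.36, are 8 that rose.

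In WT differentiation the listed genes also went both ways. From WT-NPC to WT-D28, 21 of the 63 genes rose and 20 fell (65.1%), where 24.4% of all genes were called, 12.9% higher and 11.5% lower. They included 10 of 17 interneuron genes that rose, among them CNR1 (4.04), ERBB4 (3.21) and SST (2.63), and 6 that fell, among them NDNF (-4.97) and RELN (-4.56). Of 31 ventral factors, 5 rose, among them LHX8 (5.33), ISL1 (2.66) and NKX2-1 (2.35), and 12 fell, among them SP8 (-8.15) and FOXP2 (-3.39). The adjusted p of these genes was at most 0.00109. Without 1 sample, SST ranged from 1.85 to 3.46 and SP8 from -9.56 to -7.33. From dKO-NPC to dKO-D28, 6 of the 63 rose and 9 fell (23.8%, against 7.14% of all genes, 4.01% higher and 3.14% lower). Those that fell included NKX2-1 (-6.69, -8.85 to -5.71 without 1 sample), LHX8 (-3.25, up to -2.64) and ISL1 (-2.45, down to -3.08), with an adjusted p of at most 0.00689.

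The genes beside the members were also read. Of 10 protein-coding neighbours tested, 2 rose and 1 fell at day 28 in dKO against WT, where 12.4% and 11.7% of all genes were called higher and lower. At each passage 1 rose and 0 fell, where 2.59% (passage 2) and 11.1% (passage 4) of all genes were called higher. METAP1D, the gene next to DLX2 and DLX1 on chromosome 2, had 31.2 and 33 CPM in WT-D28 and 15.8 and 13.7 CPM in dKO-D28 (-1.13, SE 0.17, adjusted p = 3.59e-05). On the other side ITGA6 differed by -0.20 (SE 0.13, adjusted p = 0.196). Beside DLX5 and DLX6, SEM1 differed by 0.52 (SE 0.17, adjusted p = 0.0151) and SDHAF3 by 0.34 (SE 0.22, adjusted p = 0.198), both below the fold threshold. PDGFRA beside GSX2 rose by 2.96 (SE 0.37, adjusted p = 4.4e-06), and MYO3A beside GAD2 by 1.12 (SE 0.24, adjusted p = 0.000739).

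Among the 10 tested genes whose pattern over the 12 samples was most like the mean profile of the 8 fitted members, with members left out, were NRXN3 (Pearson's r = 0.982 of log2(CPM + 1)), ISL1 (0.981), POU2F2 and CSNK1E (0.979 each), GRIN2D (0.975), TOX2 (0.974), SHH (0.971) and HRH3 (0.97). These values are descriptive, since all 12 samples share the same 6 groups and WT-D28 stands apart in each gene. Against the mean of the other members, r was 0.967 for GAD2, 0.958 for SLC32A1, 0.929 for DLX1, 0.862 for DLX2, 0.853 for DLX6, 0.835 for GAD1 and 0.828 for LHX6, and lowest for DLX5 at 0.665.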

How the data were processed

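RNA from 12 samples (TRIzol, TruSeq RNA kit, NextSeq) was mapped by the authors to hg38 with HISAT2 2.0.4, sorted with SAMtools 1.3.1 and counted with htseq-count (HTSeq 0.6.0), and what the authors deposited are raw, unnormalized read counts for each Ensembl gene. DESeq 1.18.1 and EDASeq steps of the study are not in these counts. The annotation release and the strand setting are not given in the sources used here. Symbols and lengths came from GENCODE v44, which held 57532 of 58302 gene IDs (98.7%) and 99.8% of the counts.

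In R 4.3.3, the counts were scaled by TMM (factors 0.934 to 1.056) and fitted with edgeR 4.0.16 (robust quasi-likelihood test, 6 group means over 12 samples) on 13454 genes averaging 20 counts or more. Calls needed an unadjusted p under 0.05 and a change of over 2-fold, and adjusted p-values are Benjamini-Hochberg over all genes tested in a comparison. The fit was first tested on simulated counts. The standard error is the log2 fold change divided by the root of F. With 2 samples a group, an exact two-sided permutation test cannot go below 0.333. Nothing says that the 2 samples came from separate cultures, so p-values measure the spread between these samples, which may be technical. No batch is given, so batch and group cannot be told apart. Alternatives were DESeq2 1.42.0, adjusted calls, other count filters, only the samples compared, a replicate block, a correction for GC content and length, and each sample left out.

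The members and lists were chosen with earlier results of these data known. Named were all members, up to 4 called genes per list, comparison and direction (up to 3 for lists of other cell types) by fold change, their neighbours, DLX3, DLX4 and DLX antisense transcripts, and the 10 genes most like the members. Some genes that this rule selects are not reported here. DRD1, PVALB, VIP, EMX2, NEUROD6, SOX2 and PAX6 were added after their values were seen. Promoters came from RefSeq (GRCh38.p14) and were searched on both strands. Across the 15 pairs of groups, the deviations of same-numbered samples correlated by 0.018 on average (-0.055 to 0.182), so the numbers were not taken as pairs.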

Additional observations from a re-analysis of the deposited data

Results flagged for a closer look

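Of the 23 listed GABAergic genes with the greatest change at day 28 in each list and direction, 18 differed between genotypes in their change from passage 2 NPCs to day 28 cells, by the contrast of both changes in edgeR's quasi-likelihood test with an adjusted p below 0.05 and a difference above 2-fold. The values are log2 differences, dKO change minus WT change. The genes were picked for their genotype difference at day 28, which is a part of this contrast, so a large value here is in part fixed by the choice and the count of 18 is a description. Of all genes, 23.2% passed the unadjusted threshold in this contrast.

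The difference was negative for 10 genes. Among the ventral factors it was -9.03 for NKX2-1 (adjusted p = 2.11e-10), -8.58 for LHX8 (3.43e-06), -5.11 for ISL1 (3.8e-06) and -1.88 for ST18 (0.0109). NKX2-1 and LHX8 were higher in day 28 cells than in NPCs in WT and lower in dKO. Among interneuron genes it was -9.83 for TAC3 (0.00334) and -4.82 for CNR1 (3.57e-07), and the value of TAC3 is no bound, because WT-NPC had 0 counts. Among the rest it was -2.53 for GLS2 (0.0177), -1.38 for ABAT (0.00111), -2.47 for ADCY5 (0.00454) and -2.14 for RGS9 (0.0169).

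The difference was positive for 8 genes, at 9.02 for SP8 (9.96e-11), 5.19 for RELN (6.56e-11), 4.97 for FOXP2 (8.95e-07), 4.20 for NDNF (7.14e-05), 3.24 for MEIS1 (3.93e-07), 2.49 for PDE10A (2.64e-06), 2.35 for KIT (0.000111) and 1.94 for ELFN1 (3.14e-06). RELN in WT fell by 4.56, and in dKO it was at 197 and 181 CPM at passage 2 and 318 and 267 CPM at day 28. Leaving out 1 sample moved some of these values by over 1.5-fold, NKX2-1 from -11.19 to -8.06 (without dKO-D28 sample 1 and sample 2), SP8 from 8.20 to 10.43 (without WT-D28 sample 2 and sample 1), LHX8 to -7.97 (without dKO-NPC sample 1), ISL1 to -5.74, ADCY5 to -3.12 and RGS9 to -2.83 (without dKO-D28 sample 1), and TAC3 to -10.54 (without dKO-D28 sample 2). GLS2 was at -1.88 and no longer called without dKO-NPC sample 2. Groups of 2 samples are too small for a check of single outlying samples.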

How the results depend on the processing

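The 8 fitted members kept the same calls at passage 4 and at day 28 between genotypes under the alternatives in which they were tested, and no member past the thresholds changed direction. Of the counts of listed GABAergic genes, 161 of the alternative values stayed within 1.5 times the main count and 23 did not. Of 2823 alternative values of named listed genes, 124 were no longer called and 0 changed direction. At passage 2 the main counts were 5 higher and 5 lower. The lower count was 0 with adjusted p-values, 12 when any gene with 1 count was tested, 8 with DESeq2 and between 3 and 11 without a sample (3 without WT-NPC sample 1 or dKO-NPC sample 2, 11 without WT-NPC sample 2). With this 1-count filter, 96 listed genes were tested, 17 were higher at passage 4 (main 10) and 11 in dKO-D28 against dKO-NPC (main 6). With at least 10 counts in every sample only 41 were tested, which by construction lowers the counts. The higher and lower counts were then 3 and 2 at passage 2, and 12 were lower at passage 4 (main 23), 11 at day 28 (24) and 7 in the genotype difference of the change (19). They were 7 higher in WT-D28 against WT-NPC (21), 3 and 3 in dKO-D28 against dKO-NPC (6 and 9), 6 and 10 in WT NPCs at passage 4 against passage 2 (14 and 17), and 1 and 5 in dKO NPCs at passage 4 against passage 2 (2 and 13). The higher count of this last comparison was 4 after correction for GC content and length, and 2 to 4 without a sample. The cause of the shifts other than those under the 10-count filter was not tested. A replicate block, the pairing by number, gave 18 higher and 25 lower at day 28, and moved no other count by more than 1. The totals at passage 2 set the limit of depth, with 3 counts at up to 3.92 CPM.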
